A study of Mus musculus with 21 samples.

Results

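Cathepsins are proteases of the lysosome, and the 9 genes described here are cathepsins A, B, C, D, H, K, L and Z (Ctsa, Ctsb, Ctsc, Ctsd, Ctsh, Ctsk, Ctsl, Ctsz) and legumain (Lgmn), an endopeptidase that cuts after asparagine and processes several cathepsins. They were taken by name, as every probe whose symbol in the platform annotation is one of the 9, which gave 18 of the 45259 probes and 9 of 19057 gene symbols. Both experiments kept 17 of the 18 probes. The probe left out is a second one for Ctsb that no array detected. Each gene is given by its brightest kept probe, and all 9 were detected on every array, so none entered through a single group.

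The samples are prostates of FVB/N males, 8 to 12 weeks old and heterozygous for a luciferase reporter driven by a thymidine kinase promoter and androgen response elements (Slp-HRE2), on Illumina bead arrays. In the genistein experiment, castrated or intact males received genistein, a soy isoflavone, or its vehicle, with 3 arrays in each of the 4 groups. Genistein was given under the skin at 300 μg per mouse daily for 5 days, or 10 μg per g of mouse, beginning 4 days after surgery in castrated males. Its vehicle was 0.1 ml of mineral oil that held 2% dimethylsulfoxide. In the estradiol experiment, intact males received oil with 0.5% ethanol (5 arrays) or estradiol at 0.25 μg per mouse daily for 4 days (10 μg per kg of mouse, 4 arrays). All prostates were collected 24 hours after the last injection. The labels state neither the lobes taken nor whether an array is 1 animal or a pool, so the p-values measure a spread that may be partly technical. In whole tissue, fewer cells of a type and less RNA per cell cannot be told apart.

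Cathepsins are made as inactive proenzymes, sorted to the lysosome largely by mannose 6-phosphate receptors, and activated there at low pH. Cathepsins B, C, H, K, L and Z are cysteine proteases, cathepsin D is an aspartic protease, and cathepsin A is a serine carboxypeptidase that also shields lysosomal beta-galactosidase and neuraminidase. Cystatins inhibit the cysteine members. The prostate depends on androgen and regresses after castration, when epithelial cells are lost and phagocytes clear debris, and macrophages are rich in lysosomal proteases.

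The arrays were checked before the members were read. The median unprocessed intensity was 99.4 to 109 on arrays of the genistein experiment. On estradiol-experiment arrays it was 145 to 171.9. Over the arrays of both experiments 42.3% to 47.0% of probes were detected. All 5 prostate secretory markers were detected in every group. Their summed level (linear scale, after normalization) was 78207 to 86409 in intact vehicle males of the genistein experiment, 64633 to 79014 in those of the estradiol experiment and 5839 to 7161 in castrated vehicle males. Markers of other tissues were as high. Skeletal muscle markers summed to 70623 to 116570 over the intact arrays and 72327 to 105630 over the castrated arrays, and seminal vesicle markers to 81978 to 158060 over the intact arrays and 57778 to 102030 in castrated vehicle males. Their part in the results was not tested. Castrated arrays share chip 1 and the intact arrays of that experiment chip 2, and castration therefore cannot be told apart from chip. Castrated genistein arrays 1 and 3 stood apart, with seminal vesicle transcripts summing to 4411 and 1134 against 55596 on array 2. Estradiol-experiment vehicle array 1 had the lowest mean correlation with its group, 0.956.

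The promoters of the members were read for the E-box CACGTG, the core of the site that the lysosomal regulator TFEB is known to bind, because 5 of the 9 genes rose after castration. The sequences are RefSeq's, build GRCm38.p6, from 250 bases before to 50 after an annotated start, 5′ to 3′ on the gene's strand, with each CACGTG in capitals. Promoters with and without it are shown so that they can be set beside the changes given further on. The part of the motif in those changes was not tested.
Ctsa, chr2:164833523-164833822, plus strand: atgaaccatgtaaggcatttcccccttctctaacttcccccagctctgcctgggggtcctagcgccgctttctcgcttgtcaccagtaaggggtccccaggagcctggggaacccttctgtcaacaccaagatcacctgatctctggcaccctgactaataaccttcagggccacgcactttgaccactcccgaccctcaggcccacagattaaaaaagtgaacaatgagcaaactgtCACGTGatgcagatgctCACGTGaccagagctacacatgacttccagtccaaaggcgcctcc
Ctsd, chr7:142387778-142388077, minus strand: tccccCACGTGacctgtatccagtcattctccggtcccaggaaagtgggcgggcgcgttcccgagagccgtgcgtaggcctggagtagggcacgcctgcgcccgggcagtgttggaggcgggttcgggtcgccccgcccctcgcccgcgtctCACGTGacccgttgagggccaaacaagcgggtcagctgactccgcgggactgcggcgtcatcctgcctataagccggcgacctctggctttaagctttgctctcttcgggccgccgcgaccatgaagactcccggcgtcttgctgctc
Lgmn, chr12:102439043-102439342, minus strand: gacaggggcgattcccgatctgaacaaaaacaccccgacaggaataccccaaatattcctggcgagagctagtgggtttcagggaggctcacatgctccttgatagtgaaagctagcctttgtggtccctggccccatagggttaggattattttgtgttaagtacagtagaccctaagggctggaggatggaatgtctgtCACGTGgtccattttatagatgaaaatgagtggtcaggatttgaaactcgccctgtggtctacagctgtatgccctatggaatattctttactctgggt
Ctsk, chr3:95498960-95499259, plus strand: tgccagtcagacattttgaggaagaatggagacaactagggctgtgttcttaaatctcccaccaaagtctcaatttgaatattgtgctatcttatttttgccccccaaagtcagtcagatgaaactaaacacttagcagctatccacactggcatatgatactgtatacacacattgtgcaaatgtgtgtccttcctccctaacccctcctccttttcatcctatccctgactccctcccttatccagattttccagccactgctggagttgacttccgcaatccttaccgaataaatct
Ctsa holds the motif at -12 and 6 relative to the start, Ctsd at -245 and -98, and Lgmn at -49. The table has 9 promoters for 7 members. Ctsb and Ctsh were not matched. CACGTG, which reads the same on both strands, was in 4 of the 9 promoters, those of Ctsa, Ctsd, Ctsl (at -236) and Lgmn, and in 7.15% of all 32851. Ctsa and Lgmn each have another annotated start, upstream of the one shown, whose window lacked these letters. The promoters of Ctsc, Ctsk and Ctsz lacked them too. The longer TCACGTG, which overlaps CACGTG and was searched on both strands, was in 3 of the 9 and in 3.77% of all. Of the 5 genes that rose after castration, Lgmn had the E-box at its downstream annotated start only, and Ctsk and Ctsz did not have it.

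**Figure D1:**
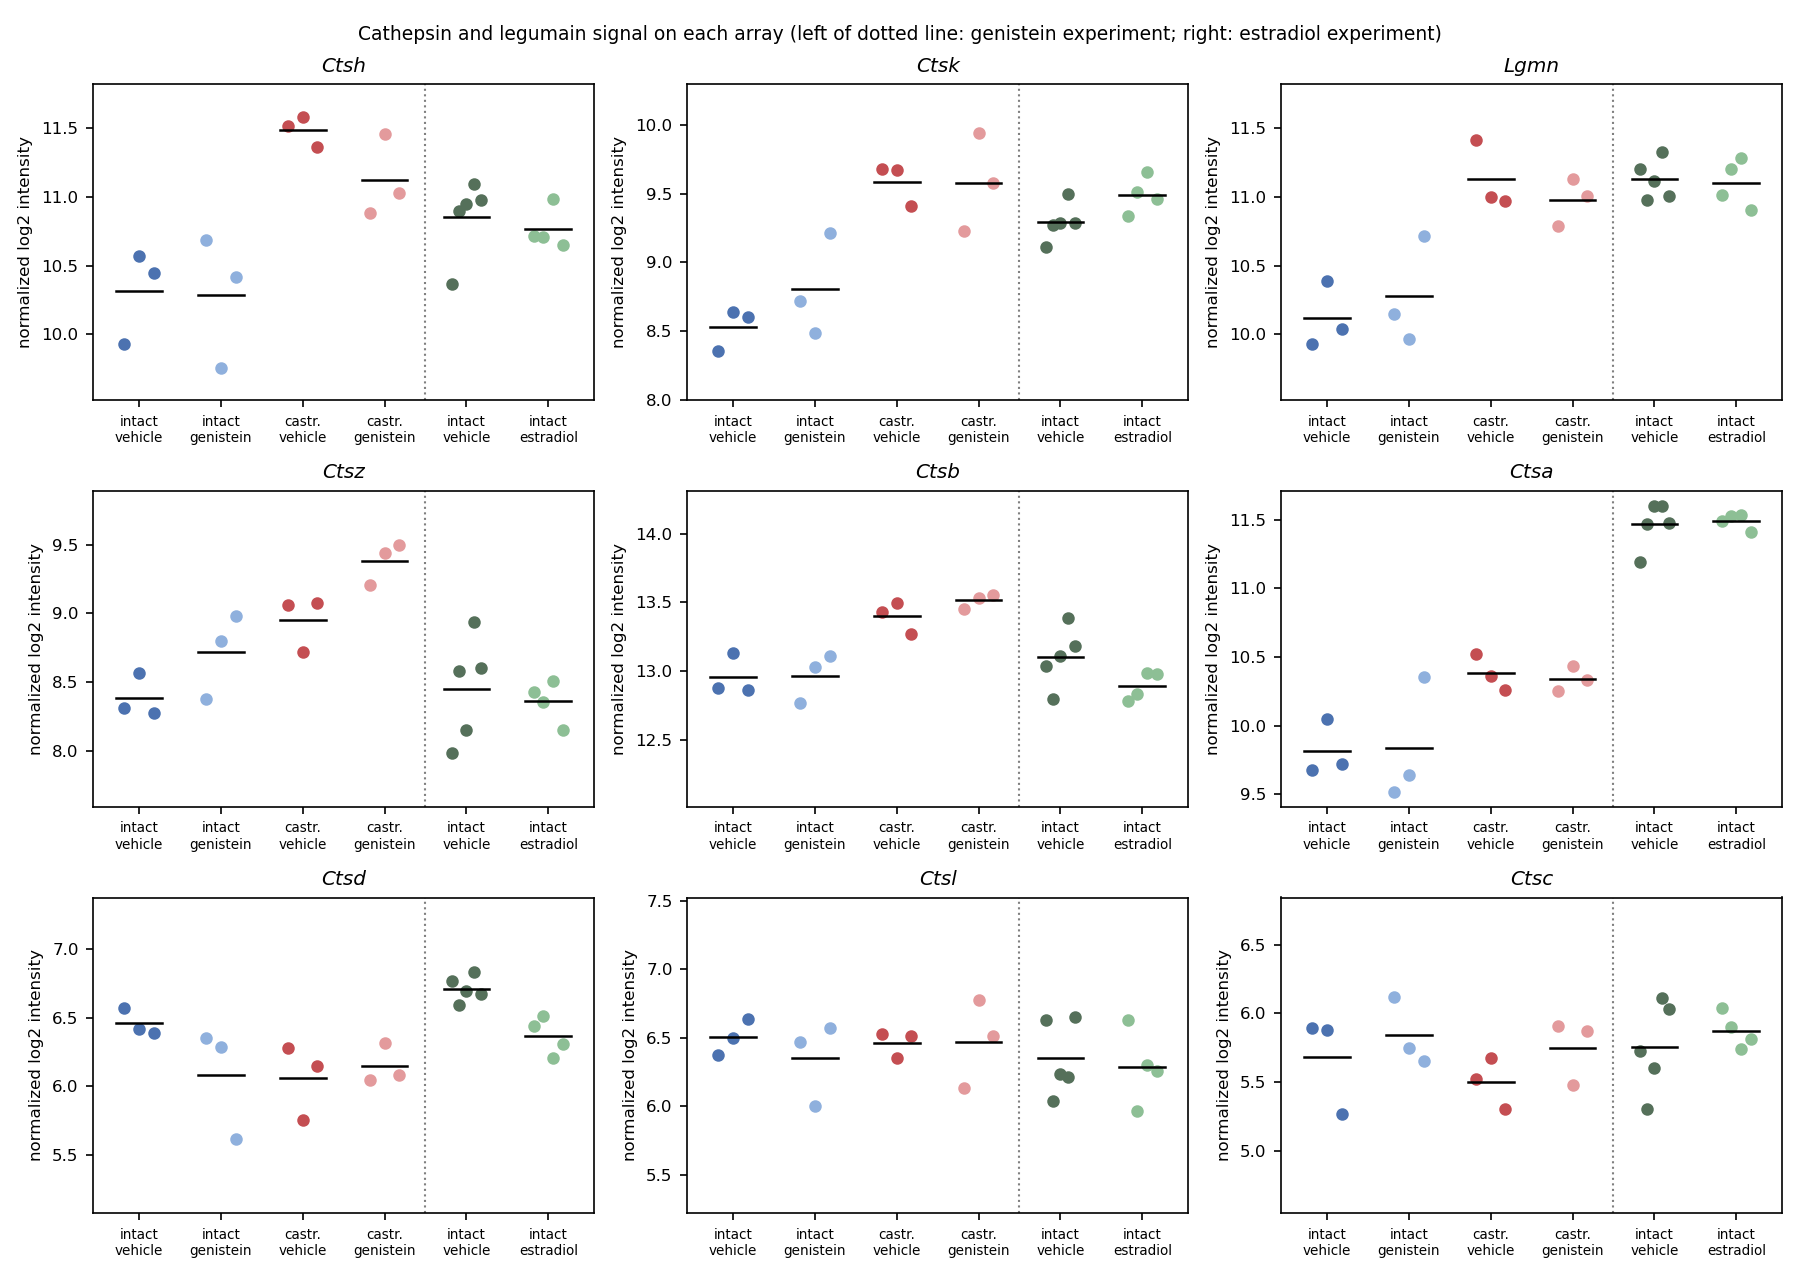
Normalized log2 intensity of the 9 genes (1 panel each) on every array: points are arrays, black bars are group means, and each panel spans the same range of log2 units. In Ctsb, Ctsh, Ctsk and Lgmn every castrated array lies above every intact array of the genistein experiment, narrowly for Ctsk and Lgmn because of intact genistein array 3, while Ctsc and Ctsl show no such separation.

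After castration, 5 of the 9 genes rose in vehicle-treated males and 0 fell. The cysteine proteases Ctsh and Ctsk rose 2.26-fold and 2.08-fold, legumain rose 2.01-fold, and Ctsz and Ctsb rose 1.48-fold and 1.36-fold. Over all genes 21.2% were called in either direction and 11.1% as higher (limma, adjusted p under 0.05). Quantile normalization gave 1713 genes higher and 1546 lower, and median scaling in its place gave 2282 higher and 1052 lower with 4 of the 9 genes called, Ctsb being lost. The median log2 change of the 9 was 0.57, against 0.04 over all 15406 genes. The 9 were chosen with earlier results of these data known, so their median and counts beside all genes are a description, not a test. The castrated and intact vehicle arrays did not overlap for 7 of the 9, where 39.5% of all genes did not overlap.

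Ctsh, an aminopeptidase of the papain family, read 11.52, 11.59 and 11.36 (normalized log2 intensity) on castrated vehicle arrays and 9.93, 10.57 and 10.45 on intact vehicle arrays. Every castrated array was higher than every intact one, and intact array 1 was the lowest. The log2 change was 1.17 (SE 0.24, adjusted p = 0.00572, limma), and the second Ctsh probe gave 1.07. Ctsk, a collagen-degrading enzyme best known in osteoclasts, read 9.68, 9.67 and 9.41 in castrated males and 8.35, 8.64 and 8.60 in intact males. The groups lay well apart, and intact array 1 was the lowest. Its log2 change was 1.06 (SE 0.21, adjusted p = 0.00441). Lgmn read 11.41, 11.002 and 10.97 in castrated males and 9.93, 10.39 and 10.04 in intact males. Castrated array 1 was the highest, and the groups did not overlap. Its log2 change was 1.01 (SE 0.21, adjusted p = 0.00516).

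Ctsz, a carboxypeptidase of the same family, read 9.06, 8.72 and 9.08 in castrated vehicle males and 8.31, 8.57 and 8.28 in intact vehicle males. Castrated array 2 lay just above intact array 2, so the groups nearly met but did not overlap. The log2 change was 0.57 (SE 0.17, adjusted p = 0.0355, limma), and its second probe gave 0.64 (SE 0.25, adjusted p = 0.100 over all kept probes). Ctsb, an endopeptidase and peptidyl-dipeptidase, was the most intense of the 9 probes used. It read 13.43, 13.50 and 13.27 in castrated males and 12.88, 13.13 and 12.86 in intact males. The groups lay close but apart. The log2 change was 0.44 (SE 0.13, adjusted p = 0.0291). The calls of Ctsz and Ctsb each ended under 6 of 15 alternatives, among them leaving out castrated vehicle array 1 or intact vehicle array 1 or 3, which left Ctsh, Ctsk and Lgmn as the 3 called genes.

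The other 4 genes did not pass. Ctsa, the serine carboxypeptidase, read 10.52, 10.36 and 10.26 in castrated vehicle males and 9.68, 10.05 and 9.72 in intact vehicle males, without overlap. Its log2 change was 0.57 (SE 0.20, adjusted p = 0.0614, limma), as large as that of Ctsz. The next brightest Ctsa probe gave 0.56 with a smaller error (SE 0.14) and passed when limma was fitted to all 22332 kept probes (adjusted p = 0.0150), whereas 3 dim Ctsa probes gave -0.07 to -0.02. Ctsd, the aspartic protease, had a single probe of low signal and read 6.28, 5.75 and 6.14 in castrated males and 6.57, 6.41 and 6.39 in intact males. It was lower on every castrated array, with a log2 change of -0.40 (SE 0.20, adjusted p = 0.172). Ctsc, which activates granule serine proteases of immune cells, had a log2 change of -0.18 (95% interval -0.62 to 0.26). Ctsl, an endopeptidase, had one of -0.04 (95% interval -0.44 to 0.36). Both were low in signal, at 5.27 to 5.89 and 6.35 to 6.64 on these 6 arrays, and their groups overlapped.

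**Figure D2:**
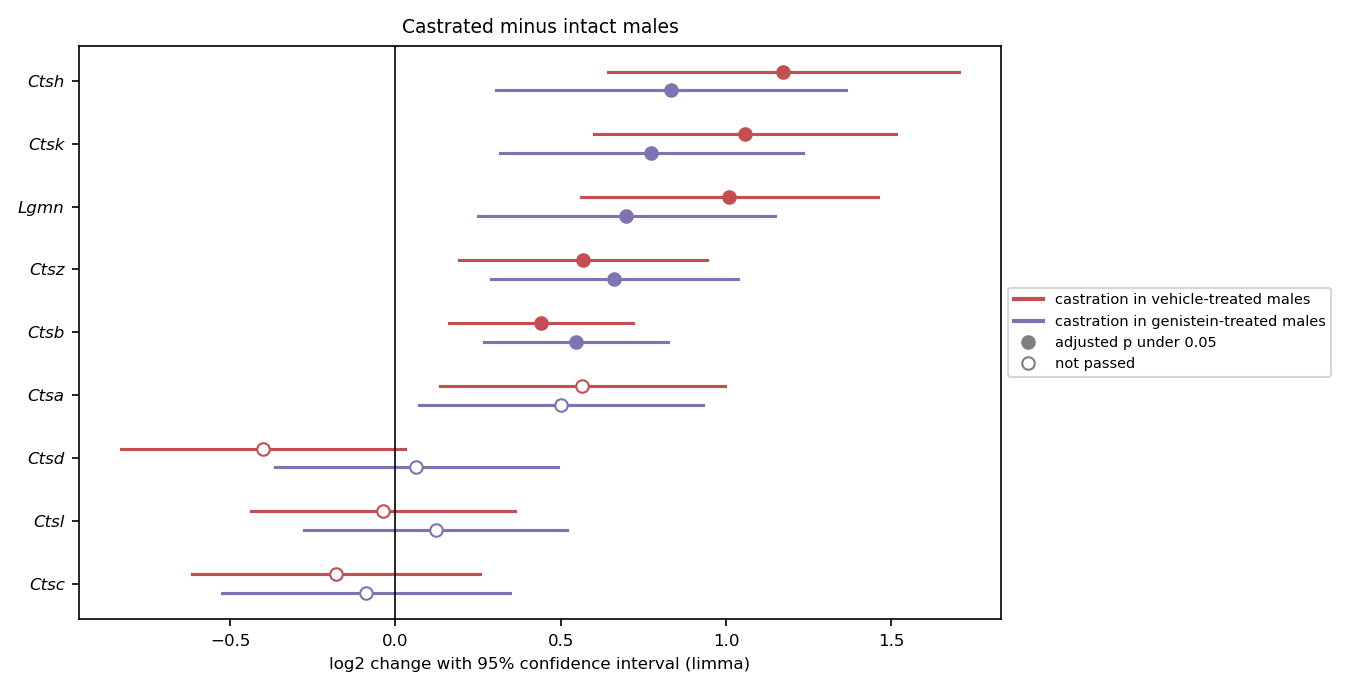
Log2 change, castrated minus intact, for each gene with its 95% confidence interval, in vehicle-treated (red) and genistein-treated (purple) males; filled points passed an adjusted p of 0.05. The same 5 genes are filled in both colours, from 0.44 for Ctsb to 1.17 for Ctsh with vehicle.

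With genistein in both arms, the same 5 genes were higher after castration, and again 0 fell, where 22.1% of all genes were called and 11.2% as higher. The arrays are other samples, but castrated and intact males again lie on separate chips, which cannot be told apart from castration. Ctsh read 10.88, 11.46 and 11.03 in castrated and 10.69, 9.75 and 10.42 in intact genistein males, a log2 change of 0.83 (SE 0.24, adjusted p = 0.0292, limma). Ctsk read 9.22, 9.94 and 9.58 against 8.72, 8.48 and 9.22, with castrated array 1 and intact array 3 nearly level, and changed by 0.77 (SE 0.21, adjusted p = 0.0210). Lgmn read 10.79, 11.13 and 11.01 against 10.15, 9.97 and 10.72, a change of 0.70 (SE 0.21, adjusted p = 0.0305). Among the intact genistein arrays, array 3 was the highest for Ctsk and Lgmn and array 1 for Ctsh. Ctsz read 9.20, 9.44 and 9.50 against 8.37, 8.80 and 8.98, a change of 0.66 (SE 0.17, adjusted p = 0.0171). Ctsb read 13.46, 13.53 and 13.55 against 12.77, 13.03 and 13.11, a change of 0.55 (SE 0.13, adjusted p = 0.0101). Groups did not overlap for these 5 genes, where 38.4% of all genes did not.

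The calls in genistein-treated males rested on few arrays. Without castrated genistein array 2, or without array 3, Ctsb alone was called, and without arrays 1 and 3, which leaves 1 array in the group that is assumed to vary like the others, Ctsk alone was. In that last setting the log2 changes were 1.17 for Ctsh, 1.13 for Ctsk, 0.85 for Lgmn, 0.72 for Ctsz and 0.57 for Ctsb. Without intact genistein array 1 or 2 the count was 2, and median scaling in place of quantile normalization left Ctsb alone. The log2 changes of the 5 genes stayed between 0.45 and 1.17 under all 16 alternatives. The castration response did not differ past the threshold between vehicle and genistein for any of the 9 (0 of 9 in limma, 0 at an unadjusted p under 0.05, 0 of 15406 genes called and 7.28% at an unadjusted p under 0.05). The intervals of that difference were wide, as for Ctsh at -0.34 (95% interval -1.09 to 0.41) and Lgmn at -0.31 (95% interval -0.95 to 0.32). For Ctsa the change was 0.50 (SE 0.20, adjusted p = 0.0910), while Ctsc, Ctsd and Ctsl had -0.09, 0.06 and 0.12. The probes of Ctsa disagreed here, with 0.48 for the next brightest (adjusted p = 0.0297, limma over all kept probes) and -0.76 for a dim one (adjusted p = 0.0199).

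Markers of macrophages and fibroblasts moved with these genes. Over all genes 11.1% were called higher with vehicle and 11.2% with genistein. Of 12 measured macrophage markers, 11 rose after castration in vehicle-treated males (median log2 change 0.95) and 8 in genistein-treated males (median 0.77). Their summed level was 10971 to 12594 in castrated vehicle males, 10030 to 12819 in castrated genistein males, 5024 to 5952 in intact vehicle males and 4681 to 8097 in intact genistein males, with Fcer1g undetected in every group. Tyrobp, a signalling adaptor of myeloid cells, rose by 1.46 and Lyz2, a lysozyme, by 1.33. Of 9 fibroblast markers, 6 rose with vehicle (median 0.61) and 3 with genistein (median 0.35), with summed levels of 36145 to 44775 in castrated vehicle males and 21508 to 23860 in intact vehicle males. The matrix proteoglycan Lum rose by 2.55, whereas the collagen genes Col1a1 and Col1a2 had -0.16 and -0.18 and did not pass. The 5 measured lymphocyte markers, of 6 on the array, all rose with vehicle (median 1.11). Of the 6, Cd2 and Ms4a1 were detected on no intact array of the genistein experiment. A marker among the 5 thus passed the detection filter only through castrated arrays, so its rise is no separate result. The list was also dim, with a mean log2 intensity of 5.13 to 5.19 in intact vehicle males. Intact genistein array 3, high in Lgmn and Ctsk among the intact arrays, also had the highest macrophage and fibroblast sums of its group, 8097 and 31270. The part of any of these cells in the changes was not tested.

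**Figure D3:**
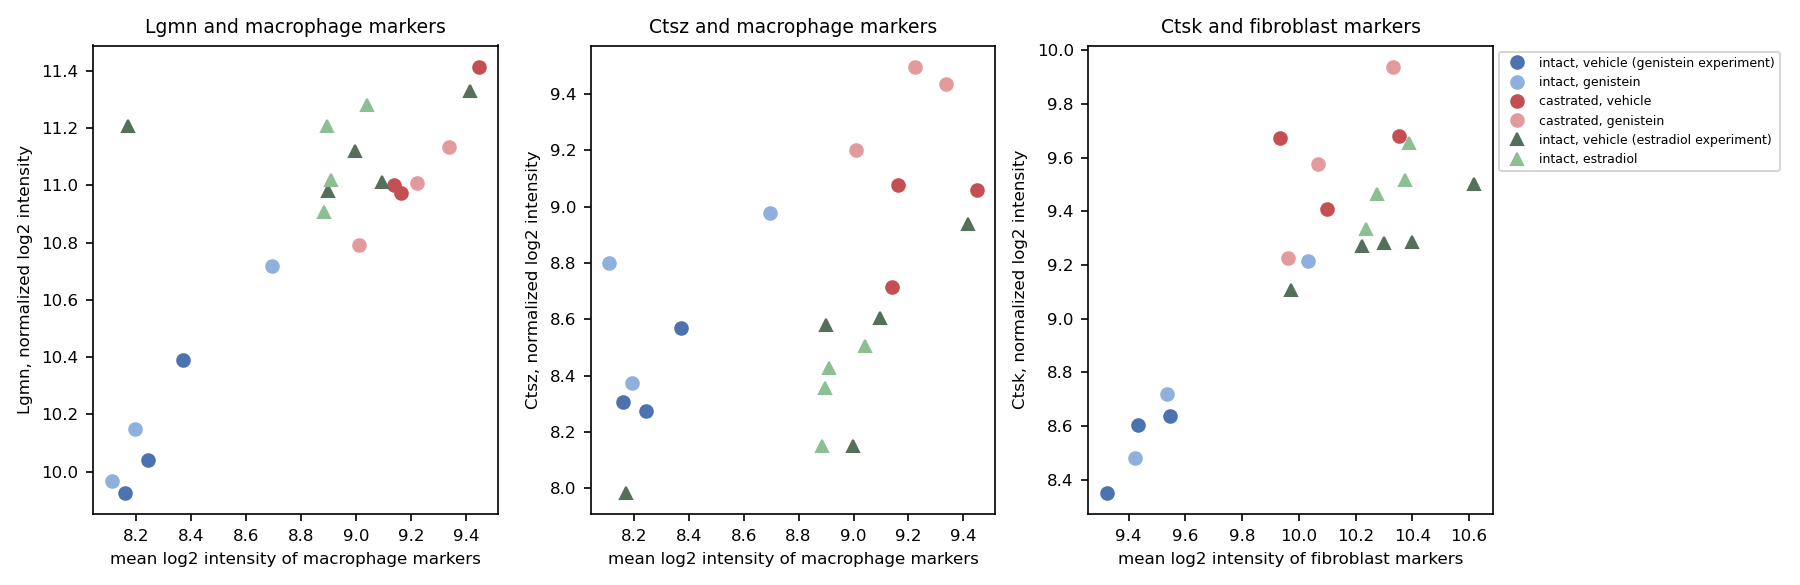
Normalized log2 intensity of Lgmn, Ctsz and Ctsk (vertical axes) against the mean log2 intensity of macrophage or fibroblast markers (horizontal axes), 1 point per array; circles are the genistein experiment and triangles the estradiol experiment, which was normalized separately. In the genistein experiment the castrated arrays lie at the upper right and the intact arrays at the lower left for Lgmn, with intact genistein array 3 between them.

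Outside the 9 genes, other lysosomal genes were called in both directions. With vehicle 11.1% of all genes were called higher and 10.0% lower, and with genistein 11.2% and 10.9%. The counts of the lysosomal lists below were not tested against these shares. Of 9 measured relatives (other cathepsins, the aspartic protease Napsa and the noncatalytic Tinag and Tinagl1), 2 rose and 2 fell after castration in vehicle-treated males, with a median of -0.05. Ctse, an aspartic protease of endosomes that is secreted in some epithelia, fell by 1.78 (SE 0.14, adjusted p = 1.14e-05, limma), from 12.55 to 10.77, but its probes disagreed, since their mean gave -0.35 (adjusted p = 0.379). Tinagl1 fell by 0.91. Napsa rose by 1.13 (adjusted p = 0.00735) and Ctsw, a cathepsin of T and natural killer cells, by 1.07 (adjusted p = 0.00264). Napsa was not detected on every array. Its alternatives ranged from 0.52 to 1.56, and those of Ctsw from 0.50 to 1.42. Ctss, the antigen-processing cathepsin of myeloid cells, was at 0.65 (SE 0.27, adjusted p = 0.107). In genistein-treated males Ctse fell by 2.49, Ctsr fell by 0.55 and Tinag rose by 1.30. Neither Ctsr nor Tinag was detected on every array. The Ctsr call ended under 7 of 15 alternatives, and the 15 gave -2.91 to -0.21. The mean of the Ctse probes gave -0.66 (adjusted p = 0.0931, limma), and the Tinag call ended without castrated genistein arrays 1 and 3, at 0.87 (adjusted p = 0.130), its alternatives ranging from 0.53 to 2.17.

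Among 4 other lysosomal peptidases 1 rose, Prcp, a carboxypeptidase, by 0.72 with vehicle and 0.81 with genistein, and Tpp1, Dpp7 and Cpq had changes of 0.09, 0.03 and -0.02. Of the 4 measured inhibitors of cysteine proteases 0 passed in either contrast. The abundant cystatin Cst3 had 0.19 (SE 0.12, adjusted p = 0.270) and Cstb -0.16 (SE 0.11, adjusted p = 0.345). The group's median was -0.07 with vehicle and 0.03 with genistein.

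Glycosidases, lipases, sulfatases and their activators rose for 4 of 26 genes and fell for 5 (median 0.07). Beside the counts in this paragraph, 11.1% of all genes were higher and 10.0% lower with vehicle, and 11.2% and 10.9% with genistein. The ganglioside activator Gm2a rose by 1.29, the sulfatase Arsa by 1.09 and the iduronidase Idua by 0.66. The heparan-degrading enzymes Sgsh and Naglu fell by 1.78 and 0.81, and the sialidase Neu1, which cathepsin A protects, fell by 0.91. With genistein 3 rose and 5 fell, including Arsa at 1.11, Acp5 at 1.09 and Gm2a at 0.70, and Sgsh at -1.67, Glb1 at -0.98 and Neu1 at -0.84. The calls of Glb1, Neu1 and Acp5 ended under 2, 1 and 1 alternatives. Acp5 was not detected on every array, and its alternatives ranged from 0.42 to 1.87. Lysosomal membrane proteins and subunits of the proton pump that acidifies the lysosome rose for 2 of 26 and fell for 6 (median -0.21). The cystine exporter Ctns fell by 1.71, Ostm1 by 0.64 and the pump subunit Atp6v0d1 by 0.61. The cholesterol transporter Npc1 rose by 0.40 and Cd63 by 0.33, calls that 10 and 11 of 15 alternatives ended. With genistein 1 rose and 5 fell, with Npc1 at 0.60 and Ctns, Slc17a5 and Ostm1 at -1.56, -0.84 and -0.56, where 2 of 16 alternatives ended the call of Npc1 and 3 that of Ostm1. Sorting receptors and regulators rose for 1 of 13 with vehicle (Vps26a, a retromer subunit, by 0.43, though the mean of its probes gave -0.067) and fell for 0. With genistein Vps26a rose by 0.57 and the receptors and adaptors Sort1, Gga1 and Igf2r fell by 0.67, 0.44 and 0.42. Of 16 alternatives, 9 ended the call of Gga1, 4 that of Igf2r, 2 that of Vps26a and 1 that of Sort1. The regulators Tfeb and Tfe3 had -0.31 (adjusted p = 0.295) and 0.21 (adjusted p = 0.460) with vehicle.

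**Figure D4:**
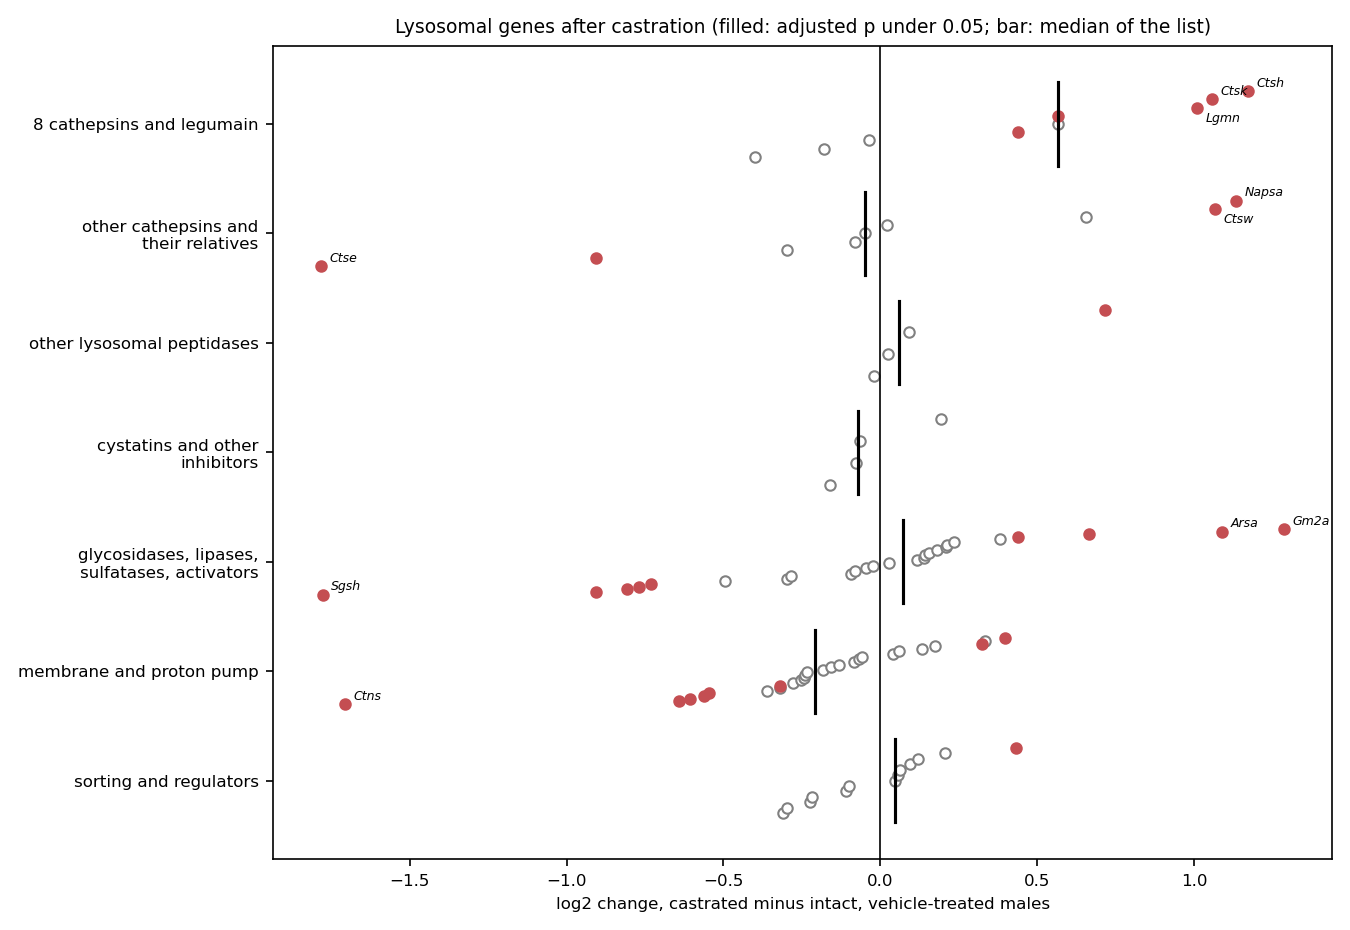
Log2 change after castration in vehicle-treated males for each measured gene of 7 lysosomal groups: filled points passed an adjusted p of 0.05, open points did not, and vertical bars are group medians. The 8 cathepsins and legumain have a median of 0.57, and the other groups have medians between -0.21 and 0.07. All lists were chosen with earlier results of these data known.

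Genistein changed none of the 9 genes past the threshold in castrated males (0 of 9 in limma, 1 at an unadjusted p under 0.05), where 0% of all genes were called and 9.47% had an unadjusted p under 0.05. The exception at the unadjusted level was Ctsz. Its castrated genistein arrays, at 9.20, 9.44 and 9.50, lay above its castrated vehicle arrays, at 8.72 to 9.08. The log2 change was 0.43 (95% interval 0.05 to 0.80, adjusted p = 0.455), and the groups did not overlap, as for 17.5% of all genes. Its second probe gave 0.57. Without genistein arrays 1 and 3, which stood apart, the change of Ctsz was 0.49 and that of Ctsh -0.03. Ctsh had the widest difference downward, -0.37 (95% interval -0.90 to 0.17), with genistein arrays 1 and 3 at 10.88 and 11.03 and array 2 at 11.46, inside the vehicle range of 11.36 to 11.59. For the other 7 genes the change lay between -0.15 for Lgmn and 0.25 for Ctsc.

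In intact males genistein likewise changed 0 of the 9 (limma, 0 at an unadjusted p under 0.05), where 0.00649% of all genes were called and 7.41% had an unadjusted p under 0.05. Ctsz read 8.37, 8.80 and 8.98 with genistein and 8.31, 8.57 and 8.28 with vehicle, a log2 change of 0.33 (95% interval -0.04 to 0.71, adjusted p = 0.707). Ctsd read 6.35, 6.28 and 5.62 against 6.57, 6.41 and 6.39, with every genistein array lower and array 3 the lowest. Its log2 change was -0.37 (95% interval -0.80 to 0.05, adjusted p = 0.714), and 10.7% of all genes had groups without overlap. Ctsk had 0.28 (95% interval -0.18 to 0.73), and the other 6 genes lay between -0.15 and 0.16. The genistein response differed between castrated and intact males for 0 of the 9, the widest gap being 0.46 for Ctsd (95% interval -0.14 to 1.07, adjusted p = 0.754).

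Estradiol in intact males changed 0 of the 9 (limma, 1 at an unadjusted p under 0.05), where 0% of all genes were called and 6.92% had an unadjusted p under 0.05. The exception was the aspartic protease Ctsd. It read 6.44, 6.51, 6.21 and 6.30 with estradiol and 6.77, 6.59, 6.69, 6.83 and 6.67 with vehicle. All 4 estradiol arrays were lower than all 5 vehicle arrays, as groups without overlap were for 2.82% of all genes. The log2 change was -0.35 (SE 0.11, 95% interval -0.59 to -0.10, adjusted p = 0.656), and 0 of 20 alternatives brought it past the threshold. All 4 estradiol arrays and vehicle arrays 1 and 2 were on chip 3, where the log2 change of Ctsd was -0.31 (SE 0.16, adjusted p = 0.654, limma), that of Ctsk 0.30 and that of Ctsb -0.02. With chip as a fixed block the changes were the same and Ctsd had an adjusted p of 0.595. Ctsk, at 9.33 to 9.65 with estradiol and 9.11 to 9.50 with vehicle, had a change of 0.20 (95% interval -0.06 to 0.46). Ctsb, at 12.78 to 12.98 with estradiol and 12.79 to 13.39 with vehicle, had -0.21 (95% interval -0.50 to 0.09). The other 6 genes lay between -0.09 and 0.12. Macrophage markers summed to 9884 to 11028 with estradiol and 6991 to 14338 with vehicle, fibroblast markers to 40883 to 43720 and 37694 to 46446, and 0 of either list passed. Their part in these values was not tested. Ctsz was read by its other probe here, the brighter of its 2 in this experiment.

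**Figure D5:**
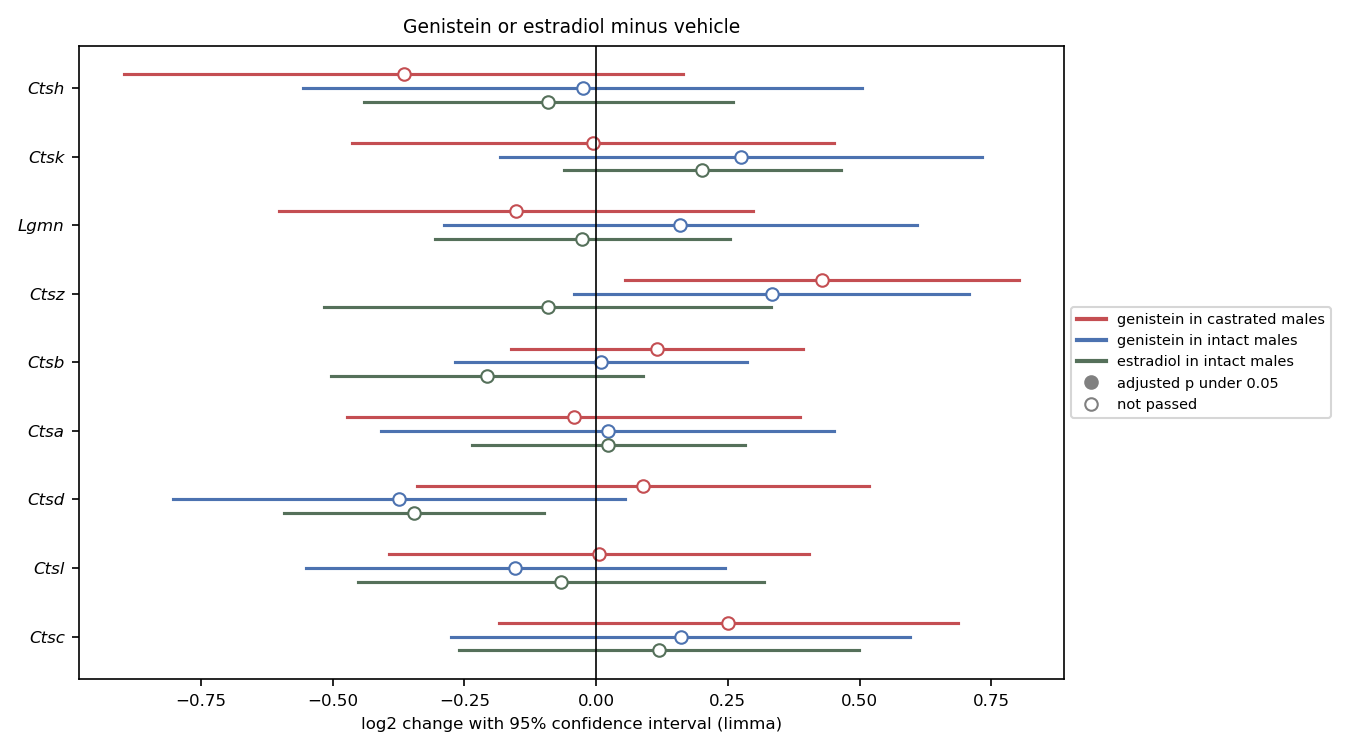
Log2 change, agent minus vehicle, for each gene with its 95% confidence interval, for genistein in castrated males (red), genistein in intact males (blue) and estradiol in intact males (green); open points did not pass an adjusted p of 0.05. All points are open, and the interval excludes 0 for Ctsz with genistein in castrated males and for Ctsd with estradiol.

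Within the genistein experiment, the order of the group means put both castrated groups above both intact groups in Ctsa, Ctsb, Ctsh, Ctsk, Ctsz and Lgmn. The vehicle and genistein groups of the same surgery, neighbours in that order, overlapped in all of these but for Ctsz in castrated males. Ctsz had the order castrated genistein (9.38 ± 0.16, SD, n = 3), castrated vehicle (8.95 ± 0.20), intact genistein (8.72 ± 0.31) and intact vehicle (8.38 ± 0.16). Ctsh had the order castrated vehicle (11.49 ± 0.11), castrated genistein (11.12 ± 0.30), intact vehicle (10.31 ± 0.34) and intact genistein (10.29 ± 0.48).

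The genes whose level most resembled each member over the 12 arrays of the genistein experiment were named by Pearson's r, as a description of arrays that share 2 chips and fall into castrated and intact groups. Ctsk was most like Fbln1 (r = 0.990) and Mgp (0.980), both matrix proteins of connective tissue, and Fbln1 is among the fibroblast markers above. Lgmn was most like Cyth4 (0.983) and Arhgdib (0.982). Ctsa followed Ccl7 (0.971) and Mgl2 (0.966), Ctsh followed Hjurp (0.970) and Bcam (0.968), Ctsz followed Vps35l (0.964) and Cd209d (0.964), and Ctsb followed Rasa3 (0.959) and Fcgrt (0.958). The 3 dim genes had weaker matches, with Ctsd and Acot9 at 0.884 and Sft2d3 at 0.846, Ctsl and Fam155a at 0.882 and 2310057J18Rik at 0.844, and Ctsc and Naif1 at 0.864 and Opn3 at 0.845. Over the 9 arrays of the estradiol experiment r was 0.558 for Ctsk and Fbln1, 0.705 for Ctsk and Mgp, 0.435 for Lgmn and Cyth4, and -0.504 for Ctsd and Acot9. It was 0.516 for Lgmn and Arhgdib, 0.512 and 0.621 for Ctsa with Ccl7 and Mgl2, and 0.641 and 0.695 for Ctsh with Hjurp and Bcam. Ctsz had 0.230 with Vps35l and 0.703 with Cd209d, and Ctsb 0.136 with Rasa3 and 0.632 with Fcgrt. Ctsd had -0.817 with Sft2d3, Ctsl 0.152 with Fam155a and -0.364 with 2310057J18Rik, and Ctsc 0.484 with Naif1 and 0.120 with Opn3.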

How the data were processed

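Both experiments have a table, deposited by the authors, of average bead intensity per probe, linear and neither background-subtracted nor normalized, per the file headers and the values, exported with BeadStudio per the submitters' processing notes. Each deposited intensity has a detection p-value beside it, per the file headers, whose method of calculation was not given in the sources used. The authors' processed intensity table was an alternative. Every per-sample column matched a sample (0 did not).

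Each experiment was normalized alone with limma 3.58.1 in R 4.3.3 (neqc, offset 16, then log2). A probe was kept where 3 or more arrays of the experiment had a detection p-value below 0.05 (22332 and 21835 probes), and the brightest kept probe stood for a gene. Of 45259 probes, 34872 had 1 symbol in the platform annotation, 18 several and 10369 none. All groups of an experiment were fitted together (lmFit, eBayes, two-sided), with Benjamini-Hochberg adjustment over all genes and a threshold of 0.05. The fit was tested on simulated data. Alternatives changed the background correction, scaling, dim-probe filter, probe choice, arrays, chip and replicate block.

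The 9 genes, the other lists and the markers were chosen with earlier results of these data known. All 9 are named. Of each other lysosomal list, up to 3 called genes in each direction with the largest change are named, and for each of the 9 the 2 most correlated genes. Ctss, Tpp1, Dpp7, Cpq, Cst3, Cstb, Tfeb, Tfe3 and single markers were named after their values were seen. The number of arrays limits the precision.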

Additional observations from a re-analysis of the deposited data

Results flagged for a closer look

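Each of the 9 genes was read in both groups of the estradiol experiment (4 or 5 arrays), which gave 18 sets of values. Of these, 1 had an array far from the rest. Chance gives about 1 in 20 per set, and the sets share the same arrays. Ctsh on vehicle array 1 of the estradiol experiment was 10.37 (normalized log2 intensity), and the other 4 arrays were at 10.90 or above. The gap was 0.727 of the group's range. That array also had the lowest mean correlation with its group, 0.956, and the lowest macrophage sum, 6991. The part of either in the Ctsh value was not tested.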

How the results depend on the processing

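In vehicle-treated males Ctsh, Ctsk and Lgmn passed under all 15 alternatives, Ctsb and Ctsz under 9 each and Ctsa under 4. Leaving out 1 array gave 3 to 6 called genes, with 3 without castrated vehicle array 1 or intact vehicle array 1 or 3. In genistein-treated males the 5 called genes became 1 with median scaling, 3 without a filter on dim probes, 3 with the authors' processed values, 2 with the compared groups alone, 1 without castrated genistein arrays 1 and 3, and 1 to 6 when 1 array was left out. With the replicate number as a block they were 3 (5 in vehicle-treated males). Numbers did not pair arrays in the genistein experiment, where same-numbered arrays correlated at -0.28 to 0.16 and 1 of 12 was closest to its own number. In the estradiol experiment these values were 0.03 to 0.34 and 4 of 8, which does not settle whether numbers pair arrays there. For genistein, estradiol and the difference in response, 0 of the 9 genes passed under any alternative run. The causes were not tested.

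Directions turned for small changes. After castration, Ctsl with vehicle was 0.17 with median scaling and Vps26a -0.067 with the mean of its probes, and Ctsd with genistein was -0.17 to 0.20 when 1 array was left out. For genistein in castrated males without arrays 1 and 3, Ctsc was -0.022 and Ctsk 0.35, and the difference in response was 0.076 for Ctsk. For genistein in intact males, leaving out 1 array gave -0.24 to 0.18 for Ctsa, -0.046 to 0.27 for Ctsc, -0.23 to 0.24 for Ctsh and -0.061 to 0.32 for Lgmn. For estradiol, median scaling gave 0.086 for Ctsh and 0.15 for Lgmn, the mean of probes -0.067 for Ctsc, and chip 3 alone or chip as a fixed block 0.13 for Ctsh. Median scaling moved the median of all genes to 0.14 after castration with vehicle, 0.11 for genistein in intact males, -0.16 for the difference in response and 0.16 for estradiol. Over all genes, the count after castration was 2037 without castrated vehicle array 1, and with genistein 2260 without castrated array 1, 2216 without intact array 2 and 839 without castrated arrays 1 and 3. Genistein called 144 genes in castrated males without castrated genistein array 2 and 19 in intact males without intact genistein array 1, and the difference in response 79 and 3. Ctsc, Ctsd and Ctsl are limited by signal near background.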

Other observations

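Markers of other cells were also read after castration. Of all genes, 11.1% were called higher and 10.0% lower with vehicle, and 11.2% and 10.9% with genistein. Of 8 smooth muscle markers 3 fell with vehicle and 6 with genistein, and 0 rose. Of 6 endothelial markers 2 rose with vehicle and 1 with genistein, and all 6 had changes above 0 in both (medians 0.69 and 0.53). Of 6 luminal markers 1 rose and 2 fell with vehicle, and 1 fell with genistein, while 0 of 4 basal markers passed in either. Of 5 urothelial markers 2 rose and 1 fell in both. Of 4 adipocyte markers 0 rose with vehicle and 3 with genistein, of 5 lymphocyte markers 3 rose with genistein, and 0 of 6 skeletal muscle markers passed. The filter limit given above for the lymphocyte list applies here too. All 5 prostate secretory markers fell in both, and of 6 seminal vesicle markers 0 passed with vehicle and 4 fell with genistein. Castrated genistein arrays 1 and 3, which stood apart, had adipocyte sums of 12704 and 13137, against 8353 on array 2. Castrated vehicle arrays had adipocyte sums of 7505 to 9041. The seminal vesicle sums of arrays 1 and 3 were 4411 and 1134, against 55596 on array 2. The part of arrays 1 and 3 in the adipocyte and seminal vesicle counts with genistein was not tested.

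The vehicle-treated intact males of the 2 experiments, which were normalized separately and not tested against each other, read differently for some of the 9 genes. Ctsa was 11.47 ± 0.17 (SD, n = 5) in the estradiol experiment and 9.81 ± 0.20 (n = 3) in the genistein experiment. Lgmn was 11.13 ± 0.14 and 10.12 ± 0.24, and Ctsk was 9.29 ± 0.14 and 8.53 ± 0.16. The macrophage sums were 6991 to 14338 and 5024 to 5952. The fibroblast sums were 37694 to 46446 and 21508 to 23860, and the endothelial sums 5584 to 8224 and 3062 to 5060. In the other direction, the prostate secretory sums were 64633 to 79014 and 78207 to 86409. The part of any of these cells in the difference was not tested.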
